A study of Mus musculus with 6 samples.

Results

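The natriuretic peptide system of the left ventricle was described in Akt2 knockout and wild type mice through 7 genes: the hormone genes Nppa and Nppb, the receptor genes Npr1, Npr2 and Npr3, and the protease genes Corin and Furin. Members were all probe sets, the groups of short probes that together read 1 transcript, that the platform annotation assigns to exactly 1 of these genes. There were 9 of them among the 45101 probe sets of the array: 3 for Npr3 and 1 for each other gene. The knockout group held 3 arrays of left ventricle from akt2-/- males, which carry a targeted disruption of Akt2, a kinase through which insulin acts on muscle. The wild type group held 3 arrays of left ventricle from wild type males. Both groups were C57BL/6 mice aged 12 to 16 weeks, with no treatment named in the labels. The knockout line had been crossed back to C57BL/6 more than 7 times, and no tissue restriction of the disruption is named. The labels do not say whether an array holds 1 animal or a pool, nor whether arrays of a group come from different animals. The p-values below therefore speak only of the spread among the 6 arrays, which may be technical.

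Atrial natriuretic peptide (ANP, from Nppa) and brain natriuretic peptide (BNP, from Nppb) are hormones that heart muscle cells secrete when they are stretched, and they lower blood pressure by acting on kidney and vessels. Both are made as longer prohormones, which the proteases corin and furin cut. The peptides bind natriuretic peptide receptor 1, whose guanylyl cyclase makes the messenger cGMP. Receptor 2 is the cyclase for C-type natriuretic peptide, and receptor 3 has no cyclase and clears the peptides from the circulation. In the adult heart Nppa is mainly an atrial gene, and both hormone genes are widely used markers of ventricular load.

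Nppa and Nppb are neighbours on mouse chromosome 4, with 0 genes between them in the RefSeq annotation of GRCm38.p6. Their promoter letters are shown because the 2 hormone genes, although adjacent, gave different values below. Capitals mark matches, on either strand, to AGATAA or TGATAA (read by GATA factors), CATTCC (TEAD factors), AAGTG (NKX2-5) and the CArG box (serum response factor). No matches overlapped one another. The first line is the 250 bases before the Nppa start, chr4:148000472-148000721. The second is chr4:147985650-147985785, the part of the Nppb window that lies before its first annotated start. The third, chr4:147985793-147985822, is the 30-base stretch that holds every match found in the 250 bases before the Nppb start used in the promoter table. All are on the plus strand. Every Nppb match thus lies after the first annotated start of Nppb, inside its annotated gene, and the distances below are counted to the later start of the promoter table.
Nppa promoter: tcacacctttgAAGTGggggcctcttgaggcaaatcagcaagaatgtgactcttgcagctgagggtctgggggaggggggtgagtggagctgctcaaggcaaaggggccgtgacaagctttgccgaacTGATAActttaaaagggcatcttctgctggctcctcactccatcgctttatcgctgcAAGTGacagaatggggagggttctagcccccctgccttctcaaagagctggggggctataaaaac
Nppb upstream part: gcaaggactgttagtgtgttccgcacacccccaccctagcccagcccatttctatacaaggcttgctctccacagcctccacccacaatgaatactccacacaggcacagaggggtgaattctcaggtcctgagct
Nppb stretch with matches: caGGAATGcagcTGATAAatcagAGATAAc

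In Nppa, TGATAA lay 122 to 117 bases before the start, and AAGTG occurred at 239 to 235 and at 65 to 61 bases before it. In Nppb, TGATAA lay at 95 to 90 and AGATAA at 84 to 79 bases before the start, and CATTCC, on the minus strand, at 105 to 100. Over 32851 mouse promoter windows of 250 bases, 7.94% held TGATAA, 9.99% AGATAA, 12.6% CATTCC, 40.7% AAGTG and 1.47% a CArG box. These matches describe the letters of the reference genome and are not measured binding sites.

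Levels below are MAS5 signals, which are linear brightness values, and differences are of log2(signal + 21.7), the added constant being the 20th percentile of the deposited values. This scale understates the change of dim genes. Akt2 itself, the check of the labels, had signals of 2363, 2561 and 2505 in wild type arrays 1, 2 and 3, against 478, 394 and 255 in knockout arrays 1, 2 and 3. These are signals of its brightest probe set, and its dimmer tested probe sets had log2 differences of -3.63 and -1.11. In the brightest, the log2 difference of -2.69 (SE 0.24) had a limma adjusted p of 0.0638 over all tested genes. The disrupted gene itself thus did not pass the threshold of 0.05 in this fit. The arrays numbered 1 stood apart from the other 4 in both genotypes: control probe sets for 18S ribosomal RNA had medians of 57280 and 82330 there against 152.7 to 446.7, and poly-A spike-ins 50.95 and 83.0 against 628.6 to 1015. Results are therefore also given within the arrays numbered 1 and within those numbered 2 and 3. The 2 arrays numbered 1 were also unlike each other. In log2 values without control probe sets, wild type array 1 correlated at 0.891 to 0.898 with every other array. Knockout array 1 correlated at 0.933 to 0.937 with the arrays numbered 2 and 3. Median signals were 167.3 and 134.4, against 88.6 to 91.4 in the other 4. A block of the arrays numbered 1, used below, takes their shift as equal in both genotypes. Pairs of same-numbered arrays are given as a description, since the numbers 2 and 3 are not known to pair arrays. The ventricular light chain gene Myl2 had signals of 56149 or more in every array, in keeping with ventricular muscle. These are tissue samples, so fewer cells of a type and less RNA per cell cannot be told apart.

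The 9 probe sets all passed the filter on low signals, a mean log2 value of at least 6.868. In the limma test over 22519 probe sets, 0 of the 9 had an adjusted p under 0.05, against 0% of all probe sets tested. By unadjusted p under 0.05, 1 of the 9 was lower in the knockout, against 1.13% of all tested (255), and 0 were higher, against 0.879% (198). All 3 knockout arrays lay below all 3 wild type arrays in 2 of the 9, Nppb and 1 probe set of Npr3, against 3.66% of all tested. They lay above in 0 of the 9, against 3.64%. Of the same-numbered pairs of arrays, all 3 had the knockout lower in 4 of the 9 probe sets, against 14.6% of all tested, and all 3 had it higher in 2, against 14.5%. With the signals scaled to equal medians instead, 0 of the 9 had an unadjusted limma p under 0.05, against 0.32% of all tested lower (72) and 0.644% higher (145). Nppb and Npr3 1448024_at then overlapped between genotypes, and 0 of the 9 lay wholly below, against 1.43%. Npr2 alone lay wholly above, against 4%. With only 9 probe sets, of which 3 read the same gene, these counts describe the members.

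**Figure D1:**
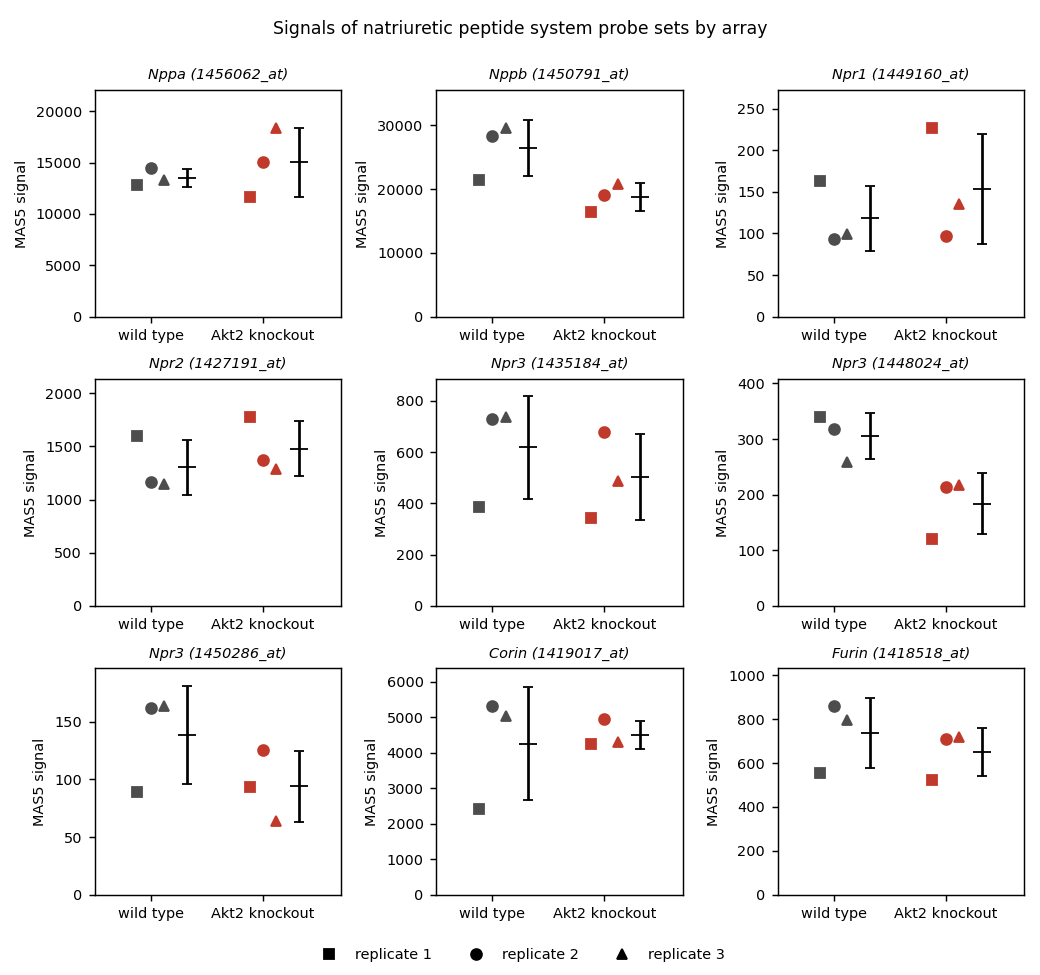
MAS5 signal (vertical axes, linear, from 0) of the 9 probe sets in each array, wild type in grey and Akt2 knockout in red, with the mark showing the replicate number and bars giving the mean ± SD (n = 3). The genotypes do not overlap in Nppb and in Npr3 probe set 1448024_at, and the squares, arrays numbered 1, often lie away from the other marks of their group.

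Nppb, the BNP gene, had lower signals in the knockout. Wild type arrays 1, 2 and 3 had 21456, 28397 and 29589, and knockout arrays 1, 2 and 3 had 16398, 19084 and 20847. The highest knockout array was thus just under the lowest wild type array, which was the one numbered 1. The means were 18780 ± 2240 (SD, n = 3) in the knockout and 26480 ± 4390 (SD, n = 3) in the wild type, so the knockout mean was 29.1% lower. The limma difference was log2 -0.49 (SE 0.21), with an unadjusted p of 0.0515 and an adjusted p of 1.00, above the threshold.

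The same-numbered pairs gave similar Nppb differences, -0.39, -0.57 and -0.50 for numbers 1, 2 and 3. Within each genotype the array numbered 1 was the lowest, by log2 -0.43 in the wild type and -0.28 in the knockout against the mean of the other arrays. A fit with the arrays numbered 1 against the others as a block left the difference at -0.49 with a smaller SE of 0.12. Its unadjusted limma p was 0.00589 and its adjusted p 0.625. In that fit 2 of the 9 probe sets, Nppb and Npr3 1448024_at, were lower by unadjusted p, against 4.25% of all tested. The replicate block, which pairs arrays by number, gave the same 2, against 3.17%. In arrays 2 and 3 alone the Nppb difference was -0.54, with an adjusted limma p of 0.489. By unadjusted p, 3 of the 9 were lower there, these 2 and Npr3 1450286_at, against 4.87%.

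Nppa, the ANP gene, had overlapping signals in the genotypes. They were 12804, 14476 and 13298 in the wild type arrays and 11646, 15028 and 18373 in the knockout arrays. The wild type arrays lay close together, and the knockout arrays spread around them, with both the lowest and the highest of the 6 values. Knockout arrays averaged 15020 ± 3360 and wild type arrays 13530 ± 859 (SD, n = 3 each), and the log2 difference was 0.13 (SE 0.22, limma adjusted p = 1.00). The pair numbered 1 gave -0.14, number 2 gave 0.05 and number 3 gave 0.47, and without knockout replicate 3 the difference was -0.03.

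The contrast between the neighbours was measured by the log2 ratio of Nppa to Nppb within each array, which cancels the scaling of the array. It was -0.74, -0.97 and -1.15 in wild type arrays 1, 2 and 3, and -0.49, -0.34 and -0.18 in the knockout arrays, with no overlap. Only its difference between genotypes is read here, since signals of different probe sets are not on 1 scale. The ratio was 1.53-fold higher in the knockout, a log2 difference of 0.62. The exact two-sided permutation test gave p = 0.10, the smallest that 3 against 3 arrays can give. The difference was 0.25 in the pair numbered 1 and 0.80 in arrays 2 and 3, and it stayed between 0.52 and 0.72 when 1 array was left out.

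Since Nppa is mainly an atrial gene, atrial markers are given beside it. Of 10 atrial genes listed, 9 had a probe set and 6 passed the filter. Myl7, the atrial regulatory light chain, had 1101, 96.5 and 1246 in the wild type arrays and 1861, 1320 and 635 in the knockout arrays. Myl4, the atrial essential light chain, had 2014, 376 and 1560 against 2224, 1604 and 803, a log2 difference of 0.41. Its dimmer tested probe set went the other way, at 377, 99.6 and 96.9 against 184, 26.5 and 24.4, a log2 difference of -1.22. Sln, which encodes the atrial calcium pump regulator sarcolipin, had 205, 56.6 and 584 against 614, 406 and 138. By the brightest probe set, these 3 genes were lowest in array 2 within the wild type and in array 3 within the knockout. Kcnj3, a potassium channel subunit gene, had 988, 551 and 603 against 1285, 698 and 597, and Dkk3, a secreted glycoprotein gene, had 162, 102 and 202 against 329, 145 and 130. Nr2f2, an atrial transcription factor gene, had 573, 561 and 639 against 502, 558 and 591. Its dimmer tested probe sets had log2 differences of 0.28, -0.38 and -0.88. In the brightest probe set of each of the 6 genes the genotypes overlapped. There the log2 differences of Kcnj3, Dkk3 and Nr2f2 were 0.23 (SE 0.35), 0.27 (SE 0.38) and -0.10 (SE 0.16). By the brightest probe set, 5 of the 6 tested had a higher mean in the knockout, with a median log2 difference of 0.34 against 0.01 over all 11075 tested genes. With the mean of all probe sets, 4 were higher and 2 lower, with a median of 0.22. The median was -0.04 without wild type replicate 2, with 2 higher and 4 lower. It was 0.03 without knockout replicate 1, with 3 higher and 3 lower, and 0.38 to 0.65 with any other array left out. None of the 6 passed the test. The summed signal of the 9 genes with a probe set, 3 of them under the filter, was 1901 to 5285 in the wild type and 3091 to 6981 in the knockout. These sums overlapped. The part of atrial tissue in the Nppa signals and in the ratio of Nppa to Nppb was not tested.

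**Figure D2:**
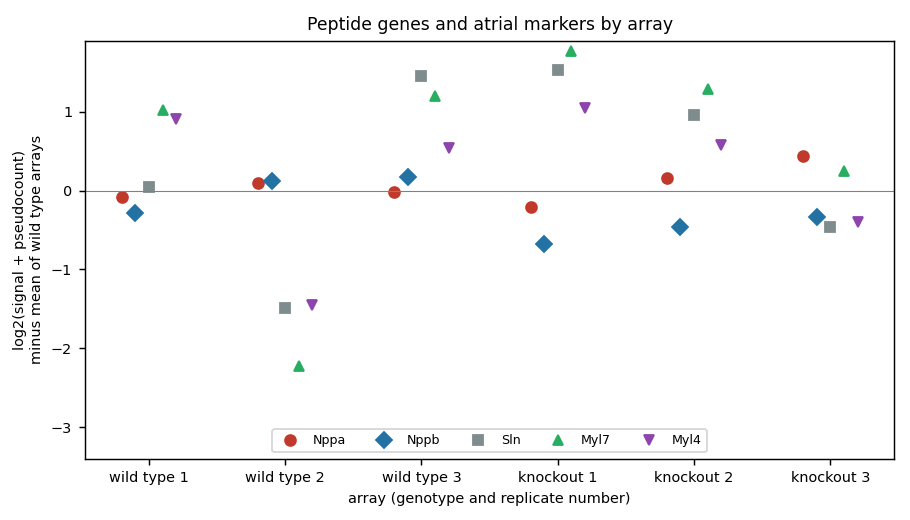
Log2(signal + 21.7) minus the mean of the wild type arrays (vertical axis) for Nppa, Nppb and the atrial markers Sln, Myl7 and Myl4 in each of the 6 arrays (horizontal axis). The 3 atrial markers are lowest in wild type array 2, and Nppb lies below Nppa in every knockout array.

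Npr3, the clearance receptor gene, had a lower mean signal in the knockout in all 3 of its probe sets, which differed in how clearly the genotypes separated. The brightest, 1435184_at, had 386, 731 and 738 in the wild type arrays and 344, 680 and 486 in the knockout arrays. The genotypes overlapped, and the arrays numbered 1 were the lowest of both groups. Its log2 difference was -0.28 (SE 0.35, limma adjusted p = 1.00).

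Probe set 1448024_at had 340, 319 and 259 in the wild type arrays and 120, 214 and 217 in the knockout arrays, with no overlap. The means were 183.7 ± 55.1 (SD, n = 3) and 305.8 ± 41.9 (SD, n = 3), a mean 39.9% lower in the knockout. The log2 difference was -0.70 (SE 0.26), with an unadjusted limma p of 0.0311 and an adjusted p of 1.00. It was -1.35 in the pair numbered 1, -0.38 in arrays 2 and 3, and -0.46 without knockout replicate 1. The gap was thus widest between the arrays numbered 1.

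The dimmest, 1450286_at, had 89.4, 162 and 164 in the wild type arrays and 93.2, 125 and 63.6 in the knockout arrays. The overlap came from wild type array 1, the lowest of its group. The log2 difference was -0.46 (SE 0.30, limma adjusted p = 1.00), with 0.05 in the pair numbered 1 and -0.72 in arrays 2 and 3. The 3 probe sets read 1 gene and are not independent. They also did not rank the arrays alike: in the wild type the array numbered 1 was lowest for 2 of them and highest for 1448024_at.

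Npr1, the cyclase receptor for ANP and BNP, was read by a dim probe set. It had 163, 92.8 and 98.9 in the wild type arrays and 227, 97.4 and 136 in the knockout arrays, which overlapped. Each knockout array was above the wild type array of the same number, by log2 0.43, 0.06 and 0.39. The array numbered 1 was the highest in both genotypes. The log2 difference over all arrays was 0.29 (SE 0.33, limma adjusted p = 1.00), and it was 0.004 without knockout replicate 1.

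Npr2, the receptor for C-type natriuretic peptide, had 1604, 1164 and 1144 in the wild type arrays and 1778, 1370 and 1290 in the knockout arrays. As with Npr1, the arrays numbered 1 were the highest, each knockout array exceeded its same-numbered wild type array, and the groups overlapped. The 3 differences were close together, at 0.15, 0.23 and 0.17. The limma difference was 0.18 (SE 0.22, adjusted p = 1.00), and 0.18 (SE 0.11, adjusted p = 0.695) with the arrays numbered 1 as a block. The ligand gene of this receptor, Nppc, was under the filter, with signals of 10.1 to 25.4 in the wild type and 20.5 to 33.5 in the knockout.

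The within-array log2 ratio of Npr1 to Npr3, the signalling against the clearance receptor of ANP and BNP, was taken with the brightest Npr3 probe set, 1435184_at. It was -1.15, -2.72 and -2.66 in the wild type arrays and -0.56, -2.56 and -1.69 in the knockout arrays. The groups overlapped, and the arrays numbered 1 were the highest of both. The difference was 0.57, with p = 0.50 in the exact two-sided permutation test. It was 0.59 in the pair numbered 1 and 0.56 in arrays 2 and 3. With the other Npr3 probe sets in its place, a choice made after seeing the data, it was 1.00 for 1448024_at and 0.75 for 1450286_at, with overlap and an exact two-sided permutation p of 0.20 in both. Adjusted over the 2 ratios tested by the Benjamini-Hochberg method, the p-values of the hormone and receptor ratios were 0.20 and 0.50. Leaving out 1 array moved the receptor ratio difference by over 1.5 times in 5 of 6 cases, to between 0.05 without knockout replicate 1 and 1.08 without wild type replicate 1.

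Corin, the membrane protease of heart muscle cells that cuts the ANP prohormone, had signals of 2427, 5318 and 5030 in the wild type arrays and 4244, 4949 and 4304 in the knockout arrays. Wild type array 1 was far under the other 5. Knockout arrays averaged 4499 ± 391 and wild type arrays 4259 ± 1590 (SD, n = 3 each), and the log2 difference was 0.16 (SE 0.32, limma adjusted p = 1.00). The direction turned without wild type replicate 1 (-0.20) and in arrays 2 and 3 alone (-0.16), and the pair numbered 1 gave 0.80.

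Furin, the convertase of the secretory pathway that cuts many prohormones, had 555, 860 and 795 in the wild type arrays and 524, 708 and 717 in the knockout arrays. The groups overlapped through wild type array 1, and the array numbered 1 was the lowest in both genotypes. Each knockout array lay below its same-numbered wild type array, by log2 -0.08, -0.27 and -0.14. The log2 difference was -0.17 (SE 0.24, limma adjusted p = 1.00), and with the arrays numbered 1 as a block the SE was 0.11 and the adjusted p 0.718.

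**Figure D3:**
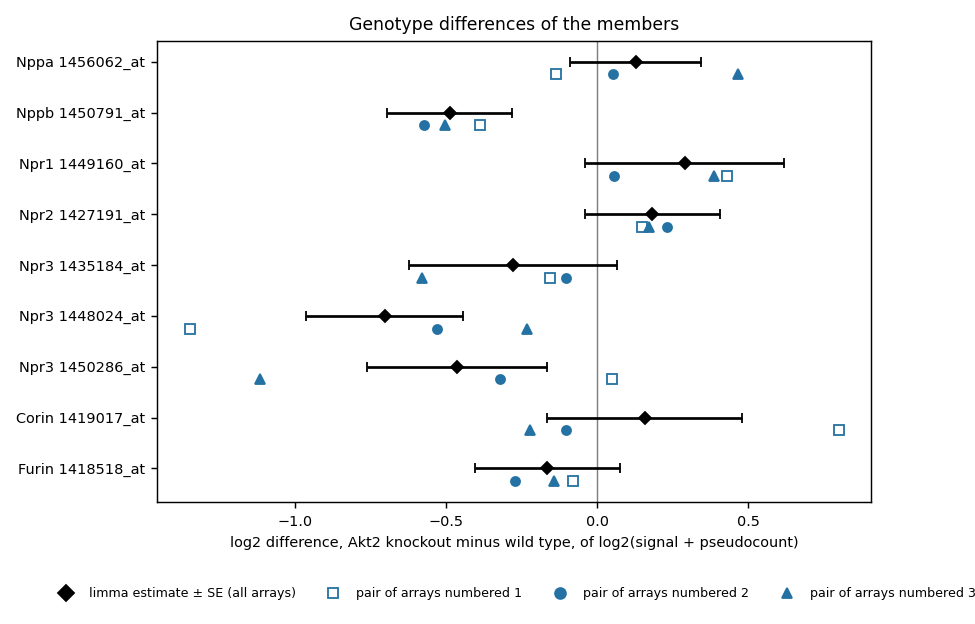
Log2 difference, Akt2 knockout minus wild type (horizontal axis), of the 9 probe sets: diamonds with bars are the limma estimate ± SE over all arrays, and the blue marks are the same-numbered pairs of arrays. For Nppb the 3 pairs lie between -0.57 and -0.39, while those of Corin run from -0.22 to 0.80.

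The arrays numbered 1 differed from the mean of the others in the same direction in both genotypes for 7 of the 9 probe sets. They were lower for Nppb, Nppa, Corin, Furin and Npr3 1435184_at and higher for Npr1 and Npr2. The other two Npr3 probe sets went opposite ways, 1448024_at by log2 0.23 in the wild type and -0.74 in the knockout, and 1450286_at by -0.73 and 0.04. For Nppa the gap was -0.12 in the wild type and -0.51 in the knockout. For Npr3 1435184_at this gap, log2 -0.89 in the wild type and -0.70 in the knockout, was larger than the genotype difference of -0.28. For Corin it was -1.08 in the wild type and -0.12 in the knockout.

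Genes downstream of the receptors and those that break the peptides down showed no common direction. Of 14 tested genes of cGMP signalling and peptide breakdown, 8 had a higher mean in the knockout and 6 a lower one, 0 passed the test, and the median log2 difference was 0.02 against 0.01 over all tested genes. Over the 4 pathway lists, 0 of 49 tested genes had an unadjusted limma p under 0.05, against 2.17% of all tested genes. The count was larger with a block. It was 4 of 49 with the replicate block, against 5.99% of all tested genes. With the arrays numbered 1 as a block it was 6 of 49, against 8.32%. With a trended, robust variance as well it was 10 of 49, 8 higher and 2 lower, against 8.95%. With each block the share was above that of all tested genes, but the lists were not tested as sets. None of the 49 passed the adjusted threshold in these fits. Mme, which encodes the peptide-degrading enzyme neprilysin, had 158, 325 and 305 in the wild type arrays and 319, 428 and 376 in the knockout arrays. Its log2 difference was 0.53 (SE 0.28, limma adjusted p = 1.00), and the groups overlapped. Vasp, a substrate of the cGMP-dependent kinase, had a difference of -0.33 (SE 0.23), and Gucy1b1, a subunit of the nitric oxide receptor, -0.17 (SE 0.16). Pde5a, a phosphodiesterase that breaks down cGMP, had 0.39 (SE 0.31) in its brightest probe set and -0.15 in its other tested one. Prkg1, the cGMP-dependent kinase itself, had 0.09 (SE 0.21). Pde9a, another cGMP phosphodiesterase, was under the filter, at 12.6 to 43.3 in the wild type and 10 to 70.5 in the knockout.

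The relatives of furin were also measured. Of 4 tested proprotein convertase genes, 2 had a higher mean and 2 a lower one, with a median of 0.04 and 0 past the test. Pcsk6, which is known to cut and activate corin, averaged 1319 ± 224 over knockout arrays and 1318 ± 49.9 over wild type arrays (SD, n = 3 each). Pcsk7 had 667 ± 63.0 against 666 ± 41.7. Pcsk4 and Mbtps1, the site-1 protease, had log2 differences of 0.23 (SE 0.26) and 0.08 (SE 0.16).

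Of 17 tested genes of cardiac factors known to act on the Nppa and Nppb promoters, 11 had a higher mean in the knockout and 6 a lower one. The median was 0.10 and 0 passed the test. The 4 genes named next were picked as those with the lowest unadjusted limma p, and all 4 were higher. The 6 lower genes had log2 differences from -0.19 (SE 0.26) for Tbx5 to -0.05 (SE 0.50) for Nfatc4. Gata4, a zinc finger factor that reads GATA motifs such as those printed above, had 1909, 1690 and 1441 in the wild type arrays and 2304, 2000 and 1978 in the knockout arrays. Every knockout array lay above every wild type array, as in 3.64% of all tested probe sets, but the log2 difference of 0.32 (SE 0.18) had a limma adjusted p of 1.00. Its relative Gata6 had 0.33 (SE 0.25), the basic helix-loop-helix factor gene Hand2 0.45 (SE 0.25), and the T-box repressor gene Tbx2 0.64 (SE 0.30), the last with signals of 64 to 115.5 against 119.7 to 236.1, also without overlap. The summed signal of the 18 listed genes, 1 of them under the filter, was 28180 to 29320 in the wild type. In the knockout it was 30080 to 32780, without overlap. Nppb itself had lower signals in every knockout array.

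Other genes of load and of the fetal ventricular programme were split: 7 of 14 tested had a higher mean in the knockout and 7 a lower one, with a median of -0.002 and 0 past the test. Ccn2, a matrix-associated growth regulator, had 2014, 3399 and 3250 in the wild type arrays and 2018, 2107 and 1602 in the knockout arrays, a log2 difference of -0.56 (SE 0.25, limma adjusted p = 1.00). The groups overlapped only through wild type array 1. Myh7, the slow myosin heavy chain gene of fetal and loaded mouse ventricle, had 2401, 1618 and 918 against 3241, 2664 and 1652, a difference of 0.66 (SE 0.40). Des and Xirp1, genes of the intermediate filament protein desmin and of an actin-binding protein of the intercalated disc, had -0.22 (SE 0.15) and 0.24 (SE 0.19).

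**Figure D4:**
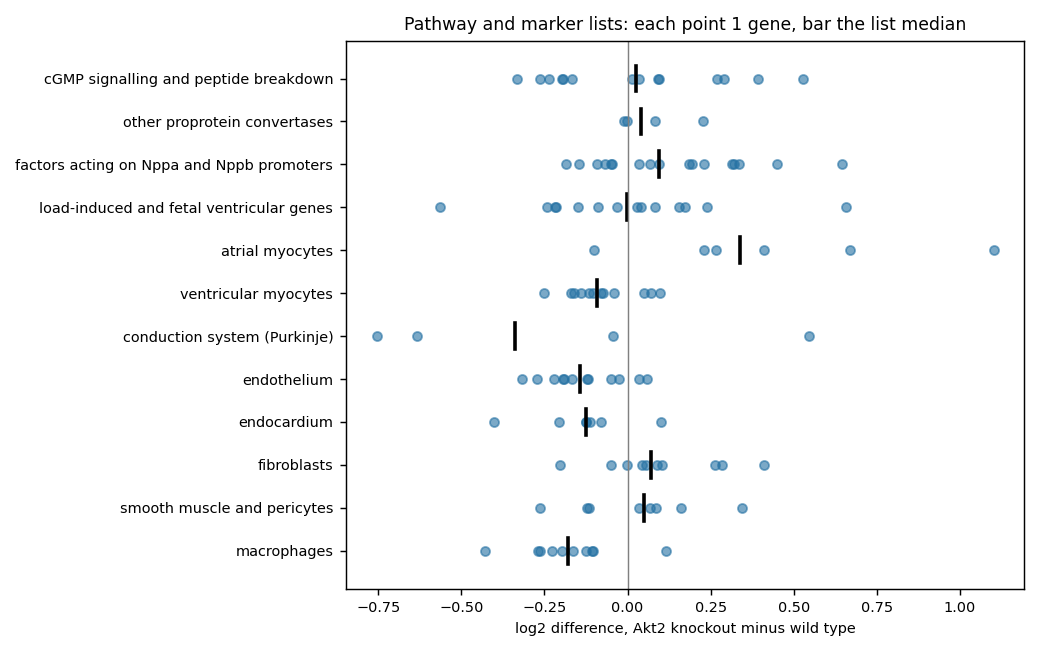
Log2 difference, Akt2 knockout minus wild type (horizontal axis), of each tested gene (points) in the 4 pathway lists and in 8 marker lists with more than 1 tested gene; black bars are list medians. The points of the cGMP list lie on both sides of 0, while 10 of 12 endothelial genes lie below it.

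Npr3 is known to be expressed in endocardium, endothelium, fibroblasts and fat, so markers of these cells are given beside it. Endothelial markers had a lower mean in the knockout in 10 of 12 tested genes, with a median of -0.14. Their summed signal was 31120 to 32260 in the wild type and 26570 to 29310 in the knockout, without overlap. This linear sum rests most on Aqp1, the brightest of the 12, which had 14196, 11883 and 11465 against 10582, 9526.5 and 10848. With Aqp1 taken off the sum of each array, the genotypes overlapped. Endocardial markers were lower in 6 of 7, with a median of -0.13 and overlapping sums of 2309 to 2710 and 1721 to 2656. Nfatc1, an endocardial transcription factor gene, had -0.13 (SE 0.21) in its brightest probe set. Its dimmer tested probe sets had 1.18 and 0.32. Fibroblast markers were higher in 7 of 10, with a median of 0.07 and overlapping sums. Pdgfra had -0.20 (SE 0.40) in its brightest probe set and 0.28 in its other tested one. With the mean of all probe sets, 9 endothelial genes were lower and 3 higher. By the same measure 5 endocardial genes were lower and 2 higher, and 2 fibroblast genes were lower and 8 higher. The 5 adipocyte genes with a probe set were all under the filter, Adipoq at 39.0 to 93.4 over the 6 arrays. Without knockout replicate 3 the endocardial median was 0.07 and the fibroblast median -0.009. With any other array left out both kept their sign. None of these marker genes passed the test. The part of these cells in the Npr3 signals was not tested.

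The remaining marker lists also overlapped between genotypes in their sums. Ventricular myocyte markers had a median of -0.09, with sums of 475900 to 1445000 in the wild type and 570900 to 886700 in the knockout. The direction of this median depended on the arrays used. It was 0.17 in arrays 2 and 3 alone, with 11 of 12 higher, 0.38 without wild type replicate 1 and -0.44 without wild type replicate 2. The highest sums of these markers were in the arrays numbered 1, where Nppb was lowest in each genotype. Smooth muscle and pericyte markers had a median of 0.05 and macrophage markers -0.18, with 9 of 10 lower. Without knockout replicate 1 the macrophage median was 0.08, with 7 of 10 higher. It was -0.42 to -0.03 with any other array left out. Red blood cells had 1 tested gene, Alas2, at -0.27.

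The genes most like each hormone gene over the 6 arrays were found by the root mean square difference of log2 values, each gene centred on its own mean. Among 11068 tested genes outside the members, the nearest to Nppb were Trib3, a pseudokinase known to bind Akt, at 0.07, then Zhx1 and Hsbp1l1, at 0.09 each, against a median of 0.41 over all genes. The choice by likeness over these arrays also fixes that their genotype difference is near that of Nppb. The nearest to Nppa were Lrrc20 at 0.05, Sdhaf4, which encodes an assembly factor of respiratory complex II, at 0.06, and Casp12 at 0.07, against a median of 0.34. With 6 arrays, of which the 2 numbered 1 stand apart, such likeness includes the difference between array sets and is a description of these arrays.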

How the data were processed

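Left ventricle RNA (12 µg total RNA per the labels' protocols) was labelled as biotinylated cRNA and hybridised to 6 Affymetrix arrays. The values deposited by the authors are linear intensities, which per the submitters' processing notes were made with MAS5 (version and settings: not given in the sources used here). With 2% of values trimmed from each end, the mean signal was 500 on every array, so each array had been scaled; that scaling was kept. The number of arrays limits the precision. After 64 control probe sets were left out, limma 3.58.1 in R 4.3.3 (lmFit, eBayes, no covariate) tested log2(signal + 21.7) for 22519 probe sets with a mean at or above the median, and 11075 genes by their brightest probe set, with Benjamini-Hochberg adjustment over all and a threshold of 0.05. The test was run on simulated data first. Probe sets naming 1 gene numbered 34945; 932 named several and 9160 are unnamed here.

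The members and the 14 lists (4 of pathways, 10 of cell type markers) were chosen with earlier results of these data known. Genes named are the members, Akt2, up to 4 genes of a pathway list by lowest unadjusted p, some marker and cGMP genes whatever their result, and the 3 nearest to each hormone gene. Lists were not tested. Deviations from genotype means correlated at 0.61, 0.45 and 0.39 for same-numbered arrays 1, 2 and 3. Unlike numbers 2 and 3 gave 0.44 and 0.36. These values set the arrays numbered 1 apart but do not show that numbers 2 and 3 pair arrays. Pairs by number and the replicate block are therefore descriptive. Alternatives varied the pseudocount, the filter, the scaling, the variance estimate and the block, and left out each array in turn. Promoters are from RefSeq (GRCm38.p6); both hormone genes matched by symbol. Protein sequences were not used here.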

Additional observations from a re-analysis of the deposited data

How the results depend on the processing

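No member probe set passed the threshold in any of the 17 alternatives to the planned fit. For Npr1 and the Npr3 probe sets 1448024_at and 1450286_at there were 16, since the stricter filter, at the 75th percentile, removed them. Over them the adjusted limma p of Nppb was 0.226 to 1.00 and its log2 difference -0.63 to -0.38. With the replicate block the difference of each member was the same as without it, -0.49 for Nppb with an adjusted p of 0.827, and the block changed no call. Direction was kept in 7 of 9 probe sets under every alternative. The exceptions were Corin, at -0.16 in arrays 2 and 3 alone and -0.20 to 0.36 with 1 array left out, and Nppa, at -0.030 to 0.30 with 1 array left out; the cause was not tested. The ratio of Nppa to Nppb was 0.25 in the pair numbered 1, and that of Npr1 to Npr3 was 1.00 and 0.75 with the other Npr3 probe sets. Scaling to equal medians shifted the median difference of all tested probe sets from 0.01 to 0.11 and gave Nppb -0.38. Over all features, 0 probe sets and 0 genes were called. With the arrays numbered 1 as a block these counts were 1 and 1, and 13 and 5 with a trended, robust variance too. For genes the count was 1 with the stricter filter, 1 with the trended, robust variance alone and 2 at a threshold of 0.10. Detection calls were not used here, so how far the dim Npr1 and Npr3 signals lie above background is not known.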

Other observations

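Among markers of the conduction system, whose Purkinje cells are known to express Nppa, the genes differed in direction. Irx3, a transcription factor gene of the Purkinje network, had signals of 2138, 1667 and 1815 in the wild type arrays and 2954, 2627 and 2625 in the knockout arrays. The knockout arrays lay wholly above, as in 3.64% of all tested probe sets. The log2 difference was 0.55 (SE 0.17), with an unadjusted limma p of 0.0147 and an adjusted p of 1.00. In the fit without a block Irx3 was the 1 gene of 70 tested marker genes with an unadjusted limma p under 0.05, against 2.17% of all tested genes. With the replicate block there were 4 of 70, against 5.99%, and with the arrays numbered 1 as a block 5 of 70, against 8.32%. With a trended, robust variance too there were 12 of 70, 4 higher and 8 lower, a larger share than the 8.95% of all tested genes. Kcne1, a potassium channel subunit gene, had 449, 188 and 203 against 162, 137 and 136, a difference of -0.75 (SE 0.32, limma adjusted p = 1.00). Its knockout arrays lay wholly below, as in 3.66% of all tested probe sets. Cntn2 had -0.04 (SE 0.30) and Sema3a -0.63 (SE 0.64), so the median of the 4 tested genes was -0.34. Gja5, the connexin gene of Purkinje and atrial cells, was under the filter at 2.8 to 16.3 over the 6 arrays.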
